A study of Mus musculus with 16 samples.

Results

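Divergent promoter pairs are places where 2 genes on opposite strands begin close together and are transcribed away from each other. Pairs were taken from the curated RefSeq transcription start sites (TSSs) of the mouse genome, build mm10, wherever the TSS of a minus-strand gene lay 1 to 1000 bp below the TSS of a plus-strand gene. The rule gave 1964 TSS pairs of 1576 gene pairs, which used 3474 of 31603 TSSs and 3109 of 26180 genes (11.9%). The region of a pair ran from 1000 bp below the lower TSS to 1000 bp above the upper TSS, and it was set beside the 28129 windows of 1000 bp on each side of every other TSS. The rule used positions only and no ChIP-seq value.

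The cells were CD8+ T cells from the spleen of OT1 mice, a strain with a transgenic T cell receptor that recognises a peptide of ovalbumin. They were activated with anti-CD3 and anti-CD28 for 48 h and then expanded with IL-2 for 3 days, with 0.5 µM GSK2879552 (GSK), which inactivates LSD1 irreversibly, or with vehicle (Veh) during both steps. Every library, Veh and GSK alike, came from activated and expanded OT1 cells. RNA polymerase II (Pol II), the demethylase LSD1, acetylation of H3K27 (H3K27ac) and mono-, di- and trimethylation of H3K4 (H3K4me1, H3K4me2 and H3K4me3) were each measured by chromatin immunoprecipitation and sequencing (ChIP-seq) in 1 library per treatment, which gave 12 peak lists. The 4 input libraries were not analysed here. No antibody had a replicate within a treatment, so no difference between Veh and GSK has a replicate error and none was tested. The intervals given below are 95% intervals over regions of 1 library. They cover counting error only and do not show the spread between cultures or mice.

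RNA polymerase that starts at a promoter meets a short stretch cleared of nucleosomes, and at a divergent pair the same stretch serves start sites on both strands. H3K4me3 and H3K27ac mark the nucleosomes that flank active start sites, H3K4me2 extends further, and H3K4me1 typically marks the outer shoulders of promoters and enhancers. LSD1 (Kdm1a) removes methyl groups from H3K4me1 and H3K4me2 and cannot act on H3K4me3. Divergent pairs are known to be common among housekeeping genes and to lie in CpG islands.

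The TSSs of a pair lay a median of 170 bp apart (interquartile range 88 to 349 bp). In 571 pairs (29.1%) the distance was at most 100 bp, and in 308 (15.7%) it was over 500 bp. Both genes were protein-coding in 1210 pairs (61.6%), 1 gene was in 716 (36.5%) and neither was in 38 (1.93%). Because a gene can have several curated TSSs, the 1964 pairs are not all independent of one another, and 43 pairs (2.19%) held a small RNA gene.

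The 9 stretches of reference sequence given here show what such promoters look like. They were read from the RefSeq GRCm38.p6 assembly, the same build as mm10, and are written 5′ to 3′ on the plus strand, so that the minus-strand gene (named before the slash) reads to the left and the plus-strand gene to the right. Each runs from at most 50 bases inside the minus-strand gene to at most 50 bases inside the plus-strand gene. Capitals mark the CCAAT box, the GC box GGGCGG, the ETS core CCGGAAG, the TATA box written as TATAAA, the NRF1 site as CGCATGCG and the YY1 site as AAGATGGCG, on either strand, and no other letters were searched. Capza1/St7l (chr3:104864455-104864556) and Tcta/Rhoa (chr9:108306109-108306210) had the shortest distance, 1 bp, among pairs with LSD1 and Pol II peaks in both treatments. Zdhhc6/Vti1a (chr19:55315986-55316107) had one of the 3 highest LSD1 ranks and 1700045H11Rik/Errfi1 (chr4:150854899-150855120) one of the 3 highest Pol II ranks. Rfc5/Gm15728 (chr5:117388973-117389172), Ska3/Mrpl57 (chr14:57826113-57826289), the histone pairs H2ac20/H2bc21 (chr3:96220830-96221122) and H2ac6/H2bc4 (chr13:23683930-23684228), and Psmb9/Tap1 (chr17:34187294-34187592) stand for the gene groups described further on.
Capza1/St7l: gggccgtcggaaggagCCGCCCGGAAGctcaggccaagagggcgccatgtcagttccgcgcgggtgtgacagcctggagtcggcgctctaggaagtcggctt
Tcta/Rhoa: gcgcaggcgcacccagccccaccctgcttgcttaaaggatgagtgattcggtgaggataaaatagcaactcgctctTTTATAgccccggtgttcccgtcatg
Zdhhc6/Vti1a: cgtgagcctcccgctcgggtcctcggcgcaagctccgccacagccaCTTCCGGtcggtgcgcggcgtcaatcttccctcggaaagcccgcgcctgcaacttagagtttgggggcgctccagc
1700045H11Rik/Errfi1: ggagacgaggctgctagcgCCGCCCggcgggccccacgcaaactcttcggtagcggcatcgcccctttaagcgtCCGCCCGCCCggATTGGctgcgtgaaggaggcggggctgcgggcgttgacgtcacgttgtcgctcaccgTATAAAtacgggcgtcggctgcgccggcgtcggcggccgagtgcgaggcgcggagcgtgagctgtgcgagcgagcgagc
Rfc5/Gm15728: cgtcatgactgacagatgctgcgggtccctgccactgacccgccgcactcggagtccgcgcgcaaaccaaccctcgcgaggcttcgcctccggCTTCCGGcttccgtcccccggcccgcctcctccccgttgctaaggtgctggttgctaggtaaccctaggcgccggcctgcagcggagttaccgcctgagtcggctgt
Ska3/Mrpl57: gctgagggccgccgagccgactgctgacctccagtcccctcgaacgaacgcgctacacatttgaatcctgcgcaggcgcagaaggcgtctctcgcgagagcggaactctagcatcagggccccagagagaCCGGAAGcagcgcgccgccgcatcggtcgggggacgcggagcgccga
H2ac20/H2bc21: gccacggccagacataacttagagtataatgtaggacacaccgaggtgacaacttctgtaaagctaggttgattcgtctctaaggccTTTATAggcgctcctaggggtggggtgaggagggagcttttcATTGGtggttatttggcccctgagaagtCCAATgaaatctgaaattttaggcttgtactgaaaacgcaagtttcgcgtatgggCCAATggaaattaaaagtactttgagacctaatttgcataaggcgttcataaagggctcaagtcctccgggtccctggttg
H2ac6/H2bc4: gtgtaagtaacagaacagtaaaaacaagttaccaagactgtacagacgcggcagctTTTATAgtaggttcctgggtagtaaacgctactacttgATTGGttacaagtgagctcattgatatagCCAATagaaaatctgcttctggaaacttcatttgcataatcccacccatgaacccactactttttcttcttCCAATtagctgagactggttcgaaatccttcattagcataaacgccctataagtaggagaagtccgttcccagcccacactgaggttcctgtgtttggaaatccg
Psmb9/Tap1: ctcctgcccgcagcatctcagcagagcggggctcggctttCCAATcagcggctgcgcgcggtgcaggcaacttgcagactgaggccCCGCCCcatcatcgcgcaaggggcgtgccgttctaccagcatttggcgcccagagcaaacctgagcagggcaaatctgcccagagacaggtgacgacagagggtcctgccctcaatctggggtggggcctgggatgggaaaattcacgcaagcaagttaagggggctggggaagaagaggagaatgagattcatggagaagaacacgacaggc

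CCGGAAG, a core recognised by ETS-family factors, stands between or beside the TSSs of Capza1/St7l, Zdhhc6/Vti1a, Rfc5/Gm15728 and Ska3/Mrpl57, in the last 3 as the only match. In Capza1/St7l it shares 2 letters with a GGGCGG match on the other strand. Both histone pairs instead hold 3 CCAAT matches and 1 TATAAA match between their TSSs and are poor in G+C, at 46.4% and 42.1%, against 68.6% for Capza1/St7l and 68.9% for Zdhhc6/Vti1a. A match is a description of the letters and not evidence of a bound factor.

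Over all pairs the sequence was rich in CpG. In the window from 250 bases before to 50 after the TSS, the median G+C content of the plus-strand TSSs of pairs was 63.3% against 54.3% for other TSSs, and the observed over expected CpG ratio was 0.842 against 0.446. Both TSSs of a pair were CpG-rich (a ratio of at least 0.6 with at least 50% G+C) in 1445 pairs (73.6%), whereas 10279 of the other TSSs (36.5%) were. The other windows that were CpG-rich therefore served as a closer comparison.

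The motifs differed in the same windows. CCGGAAG stood in 24.9% of the plus-strand TSS windows of pairs, in 8.68% of other windows and in 10.4% of all 31603 windows. Among CpG-rich windows alone it was still more frequent at pairs, at 28.4% (26.1 to 30.8) against 16.8% (16.1 to 17.6). GGGCGG, the GC box, was in 67.8% of pair windows, 40.2% of others and 43.2% of all, but among CpG-rich windows the shares were 76.3% and 76.9%. CCAAT was in 40.2%, 36.8% and 37.3%. TATAAA was in 5.01%, 13.2% and 12.3%, but in 3.67% and 4.84% among CpG-rich windows of pairs and others. CGCATGCG and AAGATGGCG, close to the motifs of NRF1 and YY1, were in 4.32% and 4.5% of pair windows, in 1.85% and 1.35% of others, and in 2.15% and 1.67% of all windows. Among CpG-rich windows CGCATGCG was in 5.25% of pairs and 4.1% of others, and AAGATGGCG in 5.32% and 2.95%. In the window of 100 bases on each side of the TSS, CpG-rich TSSs of pairs held the GC box less often, at 63.7% (61.1 to 66.2) against 70.1% (69.2 to 70.9), and CCGGAAG more often, at 21.2% against 14%. CpG-rich plus-strand TSSs of pairs thus held more ETS cores in both windows, and no more GC boxes. In close pairs the window also reaches the partner TSS, which was not allowed for. GGGCGG and CCGGAAG can share letters where they lie on opposite strands, as in Capza1/St7l.

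The labelled cell type was checked by H3K4me3 at marker genes. All 7 T cell markers (Cd3d, Cd3e, Cd3g, Cd247, Cd2, Cd5 and Lck) and both CD8 markers (Cd8a and Cd8b1) had a peak, while Cd4, Ms4a1, Lyz2, Csf1r, Itgam and Ncr1 had none. Among the markers of other lineages reported here, Zbtb7b of CD4 cells, Cd79b of B cells and Cd14 of myeloid cells also had an H3K4me3 peak. Peak numbers differed between the treatments for H3K27ac, with 7410 in Veh and 2751 in GSK, and for H3K4me2, with 15219 and 9437. They were closer for LSD1 (21252 and 19919), H3K4me1 (34387 and 40272), H3K4me3 (15779 and 16887) and Pol II (15638 and 15401). The share of pairs with a peak moves with the length of the list it is taken from.

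Pairs were more often occupied than other TSS windows in all 12 lists. H3K4me3 was the most widespread mark in the Veh cells, with a peak in 1741 pairs (88.6%, 87.2 to 90) against 44.7% of the other windows. In the GSK cells it was in 1759 pairs (89.6%) against 45.9%. Pol II had a peak in 1295 pairs (65.9%, 63.8 to 68) against 23.8% of other windows in the Veh cells and in 1064 (54.2%) against 20.4% in the GSK cells. The difference between pairs and other windows was thus 42.2 percentage points (40 to 44.3) for Veh Pol II and 44 (42.4 to 45.4) for Veh H3K4me3.

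LSD1 itself followed the same pattern. It had a peak in 1287 pairs (65.5%, 63.4 to 67.6) against 31.6% of other windows in the Veh cells, and in 1473 (75%) against 36.5% in the GSK cells. H3K27ac had a peak in 1030 pairs (52.4%) against 16.5% in the Veh cells and in 449 (22.9%) against 6.87% in the GSK cells. As a ratio, 3.18 in the Veh and 3.33 in the GSK cells, H3K27ac was the mark with the largest excess at pairs among the 6 antibodies.

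The marks of LSD1's known substrates differed from each other. H3K4me2 had a peak in 1278 pairs (65.1%) against 35.3% of other windows in the Veh cells and in 873 (44.5%) against 25.4% in the GSK cells. H3K4me1 had a peak in 744 pairs (37.9%) against 28.9% in the Veh cells and in 969 (49.3%) against 34.7% in the GSK cells. With 9 percentage points (6.82 to 11.2) in the Veh cells, H3K4me1 showed the smallest excess of the 6.

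**Figure D1:**
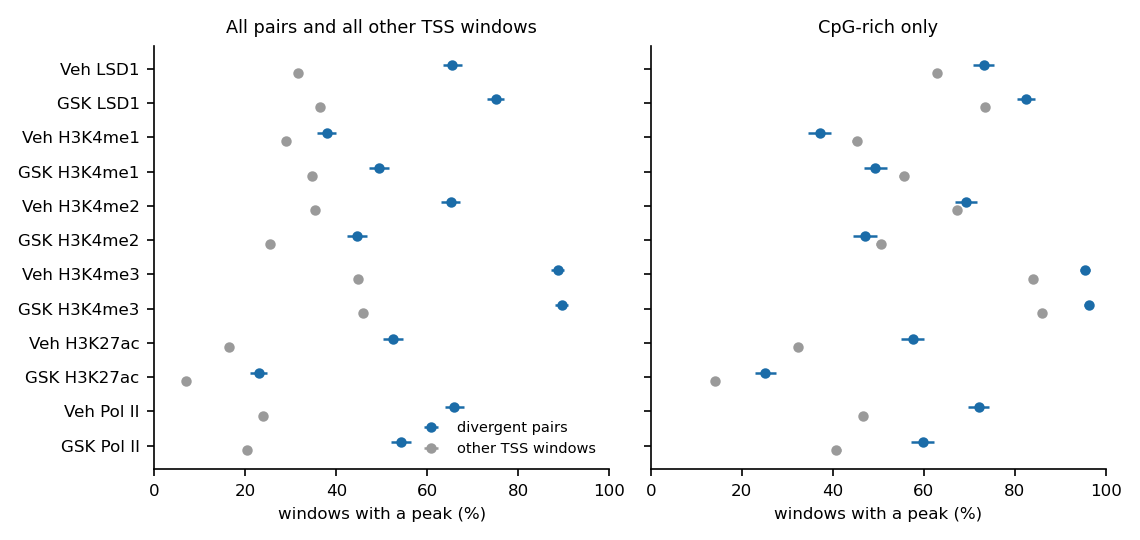
Share of windows with at least 1 peak (x axis, %) in each of the 12 peak lists (y axis), for divergent pairs (blue) and other TSS windows (grey), with bars for 95% Wilson intervals over windows; the left panel holds all windows and the right panel CpG-rich windows only. Pairs lie to the right of the other windows in every list on the left, while on the right H3K4me1 lies the other way, at 37.1% of pairs and 45.3% of other windows in the Veh cells.

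When only CpG-rich windows were compared, the pattern changed by mark. The excess at pairs was still large for H3K27ac, 57.5% against 32.3%, and for Pol II, 72% against 46.7%, each a difference of 25.3 percentage points in the Veh cells. It shrank to 11.5 points for H3K4me3 (95.4% against 83.9%) and to 10.2 for LSD1 (73.1% against 62.9%), and for H3K4me2 it was 1.99 (-0.598 to 4.49) in the Veh and -3.47 (-6.21 to -0.719) in the GSK cells. For H3K4me1 it turned round, at 37.1% of pairs against 45.3% of other windows, a difference of -8.17 points (-10.8 to -5.48). H3K4me3, H3K27ac, LSD1 and Pol II were therefore more frequent at pairs than at other CpG-rich promoters, H3K4me1 was less frequent, and H3K4me2 had no steady direction.

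In the narrowest comparison, of 915 pairs and 8476 other windows that were protein-coding, CpG-rich and marked by H3K4me3, LSD1 was at 74.4% and 71.8%, a difference of 2.66 points whose interval (-0.416 to 5.55) held 0. H3K27ac stood at 66.3% against 37.1% and Pol II at 80% against 54% in the same windows, and H3K4me1 at 34.5% against 48.9%. This narrowest comparison was chosen after the data were seen. The region of a pair is also longer than a single window, by the distance between its TSSs.

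Most pairs carried several marks at once. In the Veh cells the most frequent combination was LSD1, H3K4me2, H3K4me3, H3K27ac and Pol II without H3K4me1, in 281 pairs (14.3%), followed by the same without H3K4me2 in 210 (10.7%). All 6 antibodies had a peak in 154 pairs (7.84%). In the GSK cells the most frequent was LSD1 with the 3 forms of H3K4 methylation and neither H3K27ac nor Pol II, in 243 pairs (12.4%). Over the 12 lists, the most common number of lists with a peak was 8, in 458 pairs (23.3%). No peak in any list was found at 151 pairs (7.69%) against 44.9% of other windows, and 27 pairs (1.37%) had a peak in all 12, against 0.373%.

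The silent pairs include close ones. Best1/Rab3il1 (36 bp apart, chromosome 19), Hsf3/Heph (52 bp, chromosome X) and Dcst1/Dcst2 (66 bp, chromosome 3) were the closest coding pairs with no peak in any list, and none of the 3 was CpG-rich. Best1 encodes a chloride channel of the retinal pigment epithelium and Heph a copper-dependent ferroxidase of the gut. A short distance between start sites was thus also found where nothing was called.

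Occupancy differed by the kind of gene. Among pairs of 2 coding genes, in the Veh cells, Pol II had a peak in 75.3%, H3K27ac in 61.3%, LSD1 in 69.9% and H3K4me3 in 95.3%. With 1 coding gene the shares were 52.1%, 39.1%, 60.6% and 80.4%. The 38 pairs without a coding gene had lower shares, with H3K4me3 in 31.6% and Pol II in 28.9%. H3K4me1 gave no clear order between the main classes, at 36.9% (34.3 to 39.7) with 2 coding genes and 40.6% (37.1 to 44.3) with 1 in the Veh cells, and at 51.1% and 47.6% in the GSK cells.

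Across the distance classes of the pairs (up to 100, to 200, to 300, to 500 and over 500 bp), Veh Pol II was at 68.3%, 67%, 62.8%, 69.6% and 59.1%, with no steady order. Veh LSD1 was at 69%, 63.4%, 67.2%, 64.7% and 62%. Veh H3K4me1 was lowest in the closest pairs, at 32.9%, and highest in the widest, at 47.4%.

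**Figure D2:**
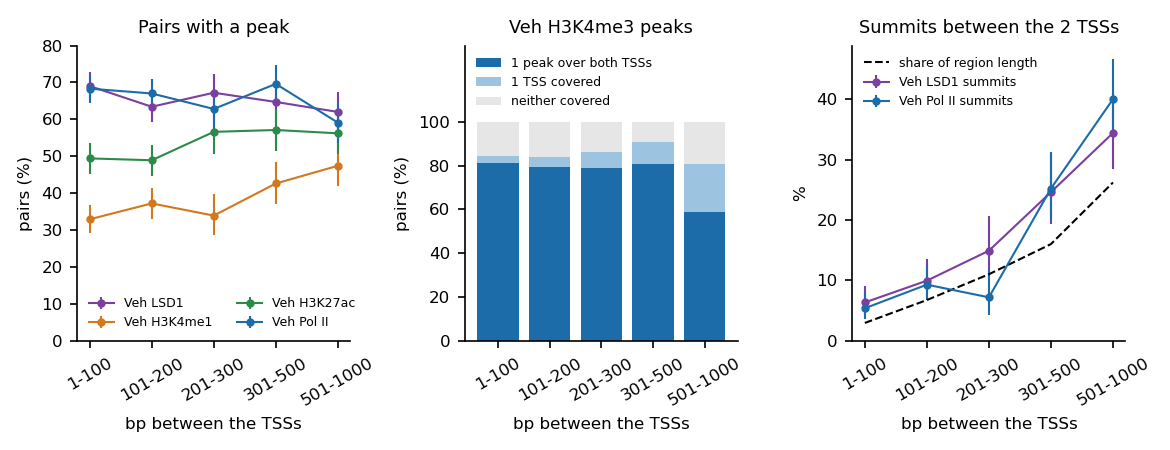
Pairs by the distance between their TSSs (x axis, bp): share of pairs with a Veh peak (left, %), how Veh H3K4me3 peaks lie over the TSSs (middle, stacked % of pairs) and share of Veh LSD1 and Pol II summits that lie between the TSSs (right, %) beside the share of region length there (dashed). Error bars are 95% Wilson intervals over pairs or summits, where a summit is counted in each region that holds it. A single H3K4me3 peak over both TSSs is found in 81.1% of the closest and 58.8% of the widest pairs.

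H3K4me3 formed a single domain over a pair. In the Veh cells 1 peak covered both TSSs in 1509 pairs (76.8%, 74.9 to 78.6), only 1 TSS was covered in 158 and neither in 297. No pair had 2 separate H3K4me3 peaks, 1 on each TSS, and the GSK cells gave 1552, 137, 275 and 0. The share with 1 peak over both was 79.5%, 78.8% and 81% in the classes up to 200, 300 and 500 bp, and it was lower only in the widest class. A broad peak caller joins nearby enriched stretches, and its part in the absence of separate peaks was not tested.

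H3K4me3 peaks over pairs were also wider, with a median of 1616 bp (interquartile range 1311 to 1931) against 1191 bp (901 to 1550) for those over other TSSs in the Veh cells. H3K27ac peaks were not, at 757 and 776 bp. H3K27ac covered both TSSs with 1 peak in 425 pairs (21.6%) of the Veh cells and 149 (7.59%) of the GSK cells, and H3K4me1 did so in 111 (5.65%) of the Veh cells.

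Where H3K4me3 covered only 1 TSS, it was mostly the coding one. Among the pairs of 1 coding and 1 non-coding gene, 464 had a peak over both TSSs in the Veh cells, 67 over the coding TSS only and 8 over the non-coding TSS only. The coding side thus held 89.3% (80.3 to 94.5) of these peaks, and 55 against 8 (87.3%) in the GSK cells.

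LSD1 and Pol II were called as narrow peaks with a summit, the base of highest signal. Summits were counted in each pair region, so a summit in overlapping regions was counted more than once. The regions overlapped 1079 different Veh LSD1 peaks and 1092 Veh Pol II peaks, and the intervals do not allow for the repeats. Of the 1366 Veh LSD1 summits so counted, 15.6% (13.8 to 17.6) lay between the TSSs, a stretch that made up 11.4% of the region length. Of the 1423 Veh Pol II summits 15% (13.3 to 17) did. Over all TSS pairs, the share of summits between the TSSs was thus somewhat above the length share of that stretch for both. The length share is not an expected value, because summits are not spread evenly over a region. With 1 TSS pair per gene pair the shares were 13.6% (11.6 to 15.7) for Veh LSD1 and 10.6% (8.89 to 12.5) for Veh Pol II. The stretch then made up 10.1% of the length, and only the LSD1 interval lay above that. The strongest Pol II summit lay a median of 76 bp downstream of the nearest TSS (interquartile range 31 to 136) and that of LSD1 175 bp downstream (45 to 327). Outside the stretch between the TSSs every summit counts as downstream, so the positive sign follows from the geometry of a pair. At other TSSs, which have no such constraint, the medians were 58 bp (-110 to 130) for Pol II and 117 bp (-104 to 329) for LSD1. In the GSK cells the medians at pairs were 75 and 154 bp.

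Few pairs had separate summits on each gene. Pol II had 2 or more summits in 9.74% of the pairs with any in the Veh cells, and summits on both outer sides in 84 pairs (6.5%). For LSD1 these were 7.57% and 80 pairs (6.3%). In pairs over 500 bp apart, 18.1% had 2 or more Pol II summits and 40% of the Pol II summits lay between the TSSs, against 26.2% of the region length. In pairs of 1 coding and 1 non-coding gene the strongest LSD1 summit lay on the coding side of the midpoint in 267 of 426 pairs (62.7%, 58 to 67.1), and the strongest Pol II summit in 57.1% (52.1 to 62.1). In the GSK cells the shares were 63.5% and 60.1%. Both leaned toward the coding gene.

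The coverage by called peaks around the TSSs had a characteristic shape for each mark. Veh H3K4me3 covered 80.3% of the TSSs of pairs, 74.4% at 500 bp upstream and 64.3% at 500 bp downstream, where upstream is toward the partner gene. At other TSSs the shares were 35.9%, 13.4% and 36.5%, so only the other TSSs dropped steeply upstream. H3K27ac of the pairs had maxima of 30.9% at 200 bp upstream and at 150 bp downstream with a dip to 25.8% at the TSS itself, whereas at other TSSs it had its maximum of 11% at 200 bp downstream. Veh Pol II covered 40.4% at the TSS and 15.4% at 500 bp upstream in pairs, and 15.4% and 2.66% at others.

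H3K4me1 was the inverse. In the Veh cells it covered 7.25% of the TSSs of pairs, with maxima of 11.6% at 1350 bp upstream and 11.9% at 1100 bp downstream. At other TSSs it covered 11.3% at the TSS and had its maximum of 12.1% at 200 bp downstream. Restricted to CpG-rich TSSs the contrast at the TSS grew, to 6.3% at pairs against 17.4% at others. H3K4me1 thus flanked the pairs on both sides and was low over their start sites. In the GSK cells the level was higher, 9.93% at the TSS and 16.8% at 1000 bp downstream, with the same shape. The peak called on the partner gene adds to what is seen upstream of a TSS in a pair.

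**Figure D3:**
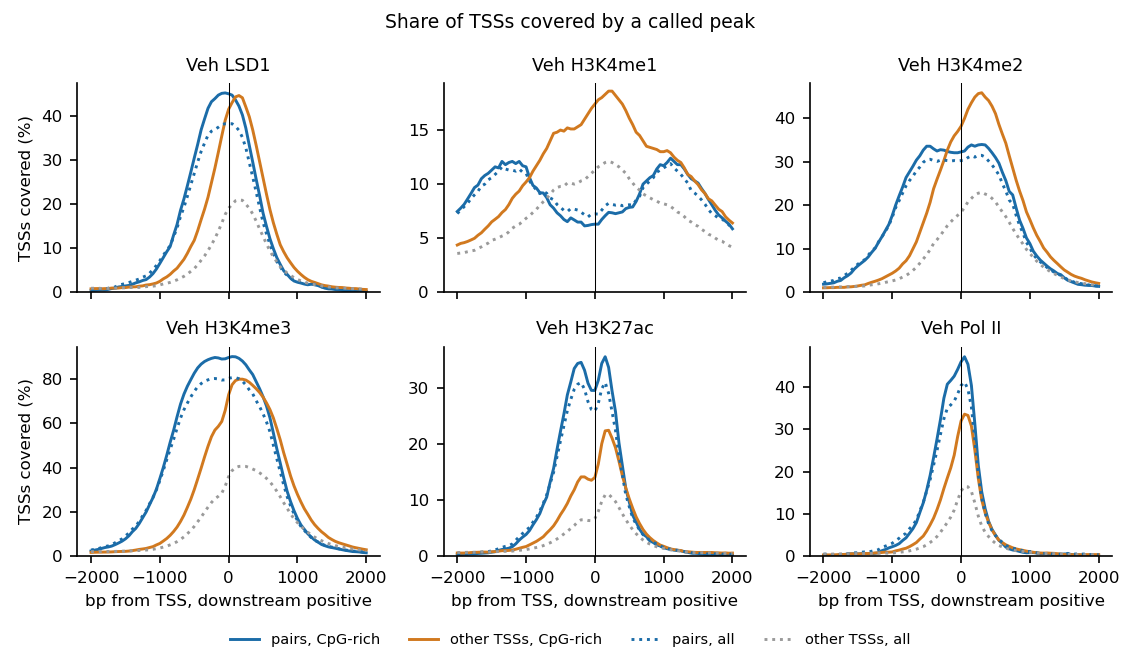
Share of TSSs covered by a called Veh peak (y axis, %) by distance from the TSS (x axis, bp, downstream positive) for the TSSs of pairs and other TSSs, all and CpG-rich, 1 panel for each antibody. H3K27ac at pairs has maxima of 30.9% on both sides of the TSS, while H3K4me1 at pairs is at 7.25% over the TSS and at 11.9% 1100 bp downstream.

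The strength of the peaks differed less than their frequency. Each peak's fold enrichment was ranked in its own list from 0 to 100. For Veh LSD1 the median rank was 56.4 at pairs and 57.4 at other windows, and for Veh Pol II 77 and 75.9. Veh H3K27ac was at 62.4 and 59.4. H3K4me2 and H3K4me3 peaks ranked lower by fold at pairs, at 40 against 53.6 and at 46.6 against 56.3, although by -log10 p H3K4me3 ranked higher, at 71.8 against 61. Pairs were thus more often called, and by fold their H3K4me2 and H3K4me3 peaks were weaker than those elsewhere.

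The strongest pairs nevertheless reached the top of the lists. Exd1/Chp1 had LSD1 folds of 21.2 in the Veh and 21.7 in the GSK cells, with H3K4me3 in both and no Pol II or H3K27ac peak. Zdhhc6/Vti1a, a palmitoyltransferase and a SNARE protein of vesicle fusion, had LSD1 folds of 18.7 and 20.8 with Pol II at 5.58 and 5.94. Emc6/Tax1bp3, of which Emc6 belongs to the ER membrane protein complex, had LSD1 folds of 16.1 and 15.8 with Pol II at 7.12 and 4.6. The 3 are 80, 21 and 41 bp apart and CpG-rich.

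For Pol II the 3 highest pairs each joined a coding and a non-coding gene. Taf4/4921531C22Rik, with a subunit of the general factor TFIID, had Pol II folds of 20.5 and 18 and an LSD1 peak in the GSK cells only, at 4.38. 1700045H11Rik/Errfi1, with a feedback inhibitor of EGF receptor signalling, had 16.9 and 14.7 and LSD1 at 4.93 and 6.45. Snord13/Tti2, with a small nucleolar RNA, had 14.9 and 13.1. The highest LSD1 and the highest Pol II thus fell on different pairs.

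The closest pairs with LSD1 and Pol II in both lists are given here with their Pol II folds and ranks. The median Pol II ranks over all pairs with a peak were 77 (Veh) and 80.4 (GSK). Those medians also count pairs without a Pol II peak in the other list or without LSD1. They are therefore not a like-for-like comparison for pairs chosen by peaks in both lists. Whether Pol II rank goes with a short distance was not tested. Capza1/St7l, with a subunit of the actin-capping protein, had Pol II folds of 6.48 and 5.47 and ranks of 87.5 and 89.9. Tcta/Rhoa, with the small GTPase RhoA of the actin cytoskeleton, had Pol II at 8.17 and 7.03 (ranks 94.8 and 96.2), and Snx5/Mgme1, 2 bp apart, at 10.5 and 9.38 (ranks 98 and 98.5).

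The CCGGAAG core also went with occupancy among the pairs. Of the 576 pairs with it in the window of either TSS, 83.2% had a Veh Pol II peak against 58.8% of the 1388 without, a difference of 24.4 points (20.2 to 28.2). H3K27ac was at 67.9% against 46% and H3K4me3 at 97.4% against 85%. LSD1 was at 71.9% against 62.9%, and H3K4me1 at 34.2% against 39.4%.

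Among CpG-rich pairs, Pol II was at 85.3% with CCGGAAG and 65.6% without (19.6 points, 15.1 to 23.9), while LSD1 was at 72.9% and 73.2% (-0.32 points, -5.31 to 4.46). CpG-rich windows that were no pair gave 69.7% against 42% for Pol II and 69.8% against 61.5% for LSD1. Over all pairs CCAAT did not divide them, at 66% with and 65.9% without for Veh Pol II. AAGATGGCG went the same way as CCGGAAG, at 86% with and 64.8% without (21.2 points, 13.1 to 27). The Veh Pol II differences were 8.54 points for GGGCGG, 9.4 for CGCATGCG and -6.85 (-15.5 to 1.32) for TATAAA. Among CpG-rich pairs they were 13.3 points (4.12 to 19.8) for AAGATGGCG and -0.104 for CGCATGCG. CCGGAAG went with Pol II peaks at pairs and at other CpG-rich windows alike in direction.

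Treatment with GSK went with more LSD1 and H3K4me1 peaks at pairs and with fewer H3K4me2, H3K27ac and Pol II peaks. LSD1 was in both lists at 1165 pairs, in Veh only at 122 (6.21%, against 4.3% of other windows) and in GSK only at 308 (15.7%, against 9.23%). H3K4me1 was in Veh only at 127 pairs (6.47%, against 3.15%) and in GSK only at 352 (17.9%, against 8.96%). The net change, the GSK-only share less the Veh-only share, was 9.47 points for LSD1 and 11.5 for H3K4me1. Among CpG-rich windows, LSD1 was in GSK only at 15.4% of pairs against 16.1% of others, so pairs had no excess there. Its net change in them was 9.34 points at pairs and 10.5 at others. H3K4me1 was in GSK only at 19.2% against 15.5% of CpG-rich windows.

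The opposite direction held for 3 antibodies. H3K4me2 was in Veh only at 475 pairs (24.2%, against 11.5% of other windows) and in GSK only at 70 (3.56%, against 1.67%). H3K27ac was in Veh only at 587 (29.9%, against 9.94%) and in GSK only at 6 (0.305%, against 0.338%). Pol II was in Veh only at 304 (15.5%, against 6.08%) and in GSK only at 73 (3.72%, against 2.69%). The net changes were -20.6 points for H3K4me2, -29.6 for H3K27ac and -11.8 for Pol II. Among CpG-rich windows H3K4me2 was in Veh only at 26.2% of pairs against 19.8% of others. There H3K27ac was at 32.7% against 18.9% and Pol II at 15.9% against 10.5%. H3K4me3 was in Veh only at 5 pairs (0.255%, against 0.366%) and in GSK only at 23 (1.17%, against 1.57%), with 1736 in both.

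**Figure D4:**
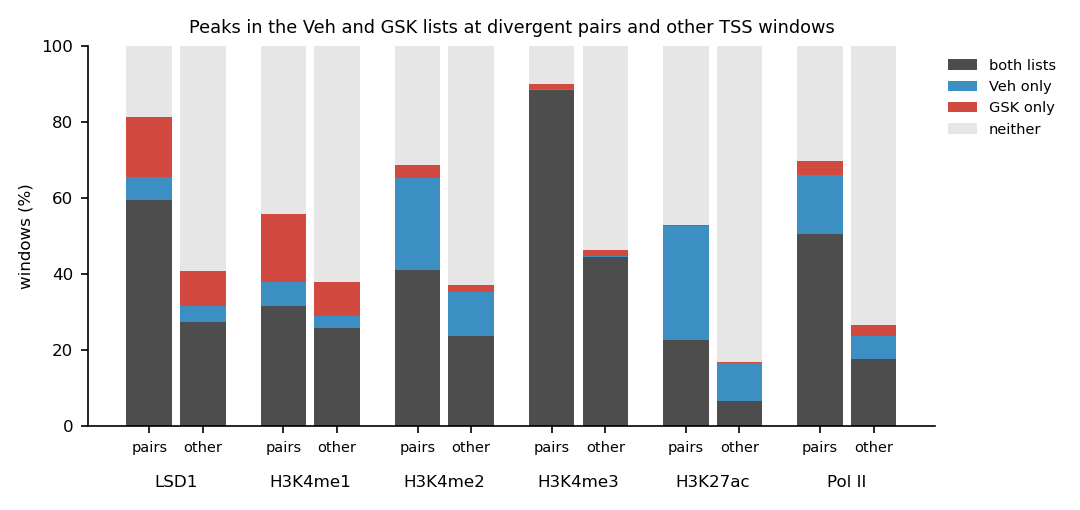
Windows (y axis, %) with a peak in both lists, in Veh only, in GSK only or in neither, for pairs and other TSS windows and each antibody. H3K27ac has the largest Veh-only share at pairs, 29.9%, and LSD1 and H3K4me1 have larger GSK-only than Veh-only shares.

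How far these changes follow the length of the lists differs by antibody. With both lists cut to the same number of peaks by -log10 p, the net change at pairs was 10.5 points for LSD1 and -11.8 for Pol II, close to the values of the whole lists. For H3K27ac it was -1.58 (-3.35 to 0.232), for H3K4me1 2.95, and for H3K4me2 it turned to 2.55. The H3K27ac, H3K4me1 and H3K4me2 differences thus cannot be told apart from a difference in how many peaks each library allowed to be called, and the read numbers listed by the study go the same way: far fewer for the GSK than for the Veh library of H3K27ac, fewer for H3K4me2 and more for H3K4me1. For LSD1 (slightly fewer in GSK) and Pol II (more in GSK) the read numbers go the opposite way to the net change at pairs, and the H3K4me3 libraries were close. The study also describes randomly picking equal read numbers to compare libraries. Whether peaks were called before or after that step is not clear, so the listed numbers may not be the depth behind each list. Where both lists had a peak, the median log2 fold ratio of GSK over Veh at pairs was 0.20 for LSD1 and -0.30 for Pol II. It was 0.24 for H3K27ac, 0.07 for H3K4me2, -0.03 for H3K4me1 and 0.03 for H3K4me3. For H3K27ac, H3K4me2 and H3K4me1 its sign was opposite to the net change of the whole lists. The ratio thus did not follow the gain or loss of peaks. For LSD1, Pol II and H3K27ac it was the same at other windows. The part of read depth or library quality in the changes was not tested for any antibody.

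Pairs also had more peaks to begin with, so the share that persisted was compared. Of the pairs with a Veh peak, 90.5% kept one in GSK for LSD1 against 86.4% of other windows, a difference of 4.13 points (2.27 to 5.78), but among CpG-rich windows the difference was 0.436 (-1.5 to 2.11). For Pol II it was 2.13 (-0.467 to 4.6), at 76.5% against 74.4%. H3K27ac was at 43% against 39.7%. Pairs kept fewer of their H3K4me1 peaks, 82.9% against 89.1% (-6.16 points), and of their H3K4me2 peaks, 62.8% against 67.3% (-4.44), and these differences were -7.33 (-11 to -4.12) and -8.34 (-11.6 to -5.19) among CpG-rich windows. Veh H3K4me1 coverage was highest 1100 bp downstream at pairs, near the edge of the region, and 200 bp downstream at other TSSs. Veh H3K4me2 peaks ranked lower by fold at pairs, at 40 against 53.6, and the GSK H3K4me2 list was shorter. The part of these in the shares kept was not tested. New LSD1 peaks were frequent, at 45.5% of the pairs without a Veh LSD1 peak against 13.5% of such other windows, and at 57.3% against 43.3% among CpG-rich ones.

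Where LSD1 had a peak in both lists, its fold rank was higher in GSK at 743 of 1165 pairs (63.8%), and at 64.5% of the other windows. The Pol II rank was higher in GSK at 49.4% of pairs and 48% of other windows. Pairs and other windows thus gave nearly the same shares by this measure.

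Named pairs show what a peak in a single list amounts to. Bop1/Hsf1, which joins a ribosome assembly factor to the heat shock transcription factor HSF1, had a Veh Pol II peak of fold 9.27 and no GSK peak within 33343 bp of the region, while its LSD1 folds were 3.33 and 6.76. Bckdha/Exosc5, with a subunit of branched-chain ketoacid dehydrogenase and one of the RNA exosome, had a Veh H3K27ac peak of fold 7.25 and no GSK peak within 58539 bp. Osgep/Apex1, of which Apex1 is an endonuclease of base excision repair, had LSD1 in Veh only at 5.68, and Lrrc46/Mrpl10 in GSK only at 6.98. Kat7/Gm11520, with a histone acetyltransferase, had H3K4me2 in Veh only at 6.24.

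Some of the named calls rested on the edge of the region. Plcd3/Acbd4 had the strongest H3K4me3 peak in GSK only, with a fold of 7.5 and a width of 1934 bp, but a Veh H3K4me3 peak began 261 bp outside the region. For Nop14/Grk4, with H3K4me1 in Veh only, the nearest GSK peak lay 78 bp outside. For Gon7/Ubr7, with H3K4me1 in GSK only, the nearest Veh peak lay 46 bp outside. The same was seen for Rpl9/Lias, with H3K4me2 in GSK only and a Veh peak 80 bp outside, and for Dbf4/Slc25a40, with H3K27ac in GSK only and a Veh peak 78 bp outside. Other calls had no such neighbour. The strongest H3K4me3 peak in Veh only, at Il17rb/Chdh, had a fold of 4.55 and a width of 219 bp, with the nearest GSK peak 28702 bp away. The nearest peak of the other list was also far at Eaf2/Iqcb1 (H3K4me1 in Veh only, 4988 bp) and Arpp21/2900079G21Rik (H3K4me3 in Veh only, 920383 bp).

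The genes in pairs were unevenly spread over functions. Of 102 DNA repair and replication genes 41 (40.2%, 31.2 to 49.9) were in a pair, of 234 genes of mitochondrial proteins 78 (33.3%, 27.6 to 39.6), and of 62 replication-dependent histone genes 26 (41.9%, 30.5 to 54.3), against 11.9% (11.5 to 12.3) of all genes. Translation and RNA machinery had 52 of 231 (22.5%) and proteasome and antigen processing 12 of 59 (20.3%, 12 to 32.3), 1 of which (Psme3ip1) was on the list by its name alone. Zinc finger Zfp genes had 36 of 406 (8.87%) and T cell genes 6 of 125 (4.8%, 2.22 to 10.1). Psmb9 and Tap1 were counted in both the T cell and the proteasome list. The Zfp list was made by prefix and also took in Zfpl1 and Zfp85os. DNA repair, mitochondrial, histone and translation genes thus lay above the share of all genes, and T cell genes lay below it. These are shares of the annotation and involve no ChIP-seq value.

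DNA repair and replication gave 40 gene pairs a median of 146 bp apart, 90% of them CpG-rich. All 40 had H3K4me3 in both treatments, against 87.4% (Veh) and 88.3% (GSK) of all gene pairs. Of the 40, 36 (90%) had a Veh Pol II peak and 32 (80%) a Veh H3K27ac peak, against 64.2% and 50.3% of all gene pairs. Veh LSD1 was at 75% against 64.3%. Among all coding, CpG-rich TSS pairs, Veh H3K4me3, Pol II, H3K27ac and LSD1 were at 98.7%, 79%, 65.6% and 73.7%. Rfc5/Gm15728, with a subunit of the clamp loader, had LSD1 folds of 11.3 and 13.1 and Pol II at 11.4 and 4.65. Rad51c/Tex14, with a protein of homologous recombination, had LSD1 in the GSK list only, at 3.53, and H3K4me3 at 10 and 10.5. Cdc45/Ufd1, with a part of the replicative helicase, had Pol II at 8.14 and 6.15, and Toe1/Mutyh, with a DNA glycosylase, at 7.41 and 6.42.

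Mitochondrial proteins gave 74 gene pairs a median of 113 bp apart, in 5 of which both genes were on the list. H3K4me3 was in all 74, Veh Pol II in 66 (89.2%) and Veh H3K27ac in 54 (73%). The shares of all gene pairs in the Veh cells were 87.4%, 64.2% and 50.3%. In the GSK cells H3K27ac was in 15 (20.3%), near the 21.3% of all gene pairs. H3K27ac was in Veh only at 39 of the 74, against 462 of all 1576 gene pairs. Mrpl41/Pnpla7, with a protein of the large mitochondrial ribosomal subunit, had a peak in all 12 lists and Pol II at 9.74 and 5.77. Ska3/Mrpl57 had LSD1 at 6.75 and 5.91 and Pol II at 8.93 and 6.34, and Ighmbp2/Mrpl21 had Pol II at 8.47 and 6.88. Ndufa13/Tssk6, with a subunit of complex I, had Pol II at 6.51 and 4.32. Translation and RNA machinery was alike, with H3K4me3 in all 52 pairs, Veh Pol II in 48 (92.3%) and Veh H3K27ac in 36 (69.2%). In it, Tbcb/Polr2i, with a subunit of Pol II itself, had LSD1 at 14.9 and 14.6 and Pol II in Veh only at 5.17, and Ptcd3/Polr1a, with the largest subunit of RNA polymerase I, had LSD1 at 3.92 and 6.17.

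**Figure D5:**
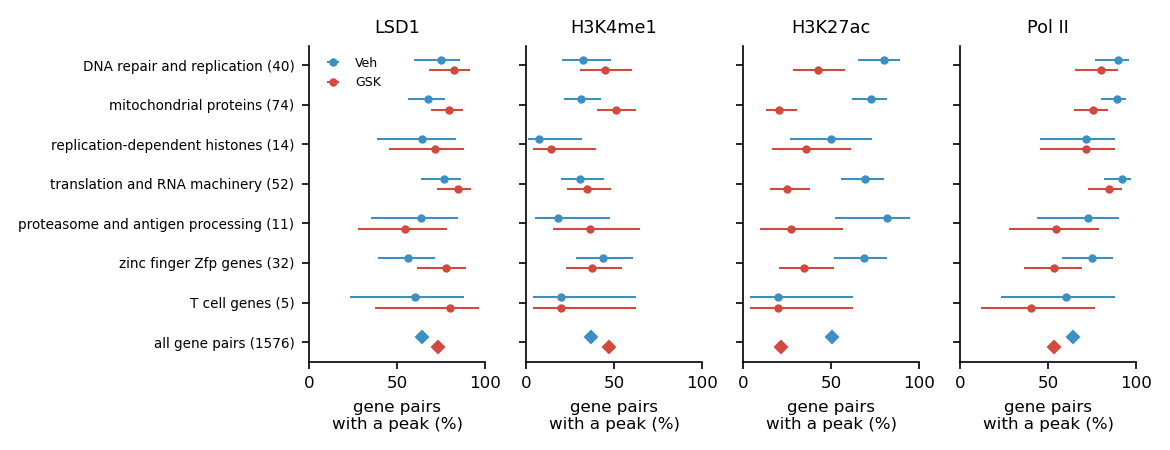
Share of gene pairs with a peak (x axis, %) for LSD1, H3K4me1, H3K27ac and Pol II in the Veh (blue) and GSK (red) cells, by gene list (y axis, number of gene pairs in brackets); bars are 95% Wilson intervals and diamonds mark all 1576 gene pairs. Veh Pol II is at 90% in DNA repair and replication, 89.2% in mitochondrial proteins and 92.3% in translation and RNA machinery, against 64.2% of all gene pairs, and Veh H3K4me1 is at 7.14% in the 14 histone pairs.

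The replication-dependent histones formed a group of their own. Their 14 gene pairs, 12 of them of 2 histone genes, lay a median of 210 bp apart, and none was CpG-rich. H3K4me3 was in 9 Veh pairs (64.3%) against 87.4% of all gene pairs, and H3K4me1 in 1 (7.14%) against 36.9%. Pol II was in the same 10 pairs (71.4%) in both treatments, and LSD1 in 9 in the Veh and 10 in the GSK cells. CCAAT stood in the window of either TSS in 13 of 14 and TATAAA in 8, against 48.5% and 6.85% of all gene pairs, and CCGGAAG in none, against 29.1%.

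By value, H2bc9/H3c7 had LSD1 at 8.8 and 10.2 and Pol II at 7.48 and 7.09. H2ac20/H2bc21 had Pol II at 6.71 and 7.47, and H2ac6/H2bc4 at 4.65 and 4.88, while their H3K4me3 folds were low, at 3.66 and 3.58 and at 3.74 and 3.89. H2bc13/H2ac13 had Pol II at 4.31 and 4.53. The named histone pairs had weak H3K4me3 by fold. They were chosen for peaks in the most lists, so their Pol II and LSD1 peaks follow from that choice. Of all 14 histone pairs, 4 had no Pol II peak and 4 no LSD1 peak in either treatment. Histone genes are near-identical copies of each other, so reads in them are assigned with less certainty. The same applies to Rps29/Rn7s1, which holds a 7SL RNA copy and had LSD1 at 8.03 and 10.1.

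Few pairs held genes of T cell function. Psmb9/Tap1, a subunit of the immunoproteasome and a subunit of the peptide transporter that loads MHC class I, had LSD1 at 3.3 and 3.89, H3K27ac at 3.72 and 4.28 and Pol II at 6.17 and 4.53, with neither H3K4me1 nor H3K4me2. Gm11999/Ikzf1, with the lymphoid transcription factor Ikaros, had LSD1 at 4.83 and 3.97 and Pol II in Veh only, at 3.29. Gm31616/Fyn, with a Src-family kinase of T cell receptor signalling, had LSD1 at 3.68 and 4.13 and Pol II at 6.23 and 4.46. Tctn3/Entpd1, with the ectonucleotidase CD39, had H3K4me3 at 10.5 and 9.29, no Pol II peak, and LSD1 in the GSK list only, at 4.46. Their LSD1 and Pol II folds were all well below those of the strongest pairs.

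Among pairs of the proteasome, Psma7/Ss18l1, 19 bp apart, had LSD1 at 4.04 and 5.56, and Mrpl32/Psma2 had LSD1 in Veh only, at 3.37. Dnajc2/Psmc2 had LSD1 in GSK only, at 5.91. Among the Zfp pairs, Zfp142/Bcs1l had LSD1 at 7.23 and 9.25 and Tubgcp2/Zfp511 at 5.28 and 8.28. LSD1 was in 18 Zfp pairs (56.2%) in the Veh and 25 (78.1%) in the GSK cells, against 64.3% and 73.6% of all gene pairs.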

How the data were processed

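The 12 deposited peak lists were called by the authors per library with MACS2, on reads aligned to mm10 with Bowtie2: narrow peaks for LSD1 and Pol II, with summits, and broad peaks for the histone marks. Each deposited peak carries a fold enrichment (a ratio of the library over background), a −log10 p, a −log10 q and a score, which the authors' peak caller derived from the p or q value. Reads and inputs were not analysed here. The study lists reads per library, and the deposited peak lists show depth only through their number of peaks. The lowest −log10 p in the Veh LSD1 list was 3.01.

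A region had a peak where a peak overlapped it by at least 1 bp. TSSs, gene types and sequence came from RefSeq GRCm38.p6. Shares have 95% Wilson intervals and differences have Newcombe intervals, which cover counting error only. Fold was ranked within each list. Chromosome Y held no peak in any list. Interval code was tested on simulated data. Python 3.11.15, numpy 2.4.6, pandas 2.3.3, statsmodels 0.14.6 and matplotlib 3.10.9 were used.

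Samples were grouped by the antibody and treatment in their labels. With 1 library a group no test was run. Pairs were named by fixed rules: up to 4 for each gene list by the number of lists with a peak, the 3 highest by LSD1 and by Pol II rank, the 3 strongest in Veh only and in GSK only for each antibody, the 3 closest with LSD1 and Pol II, the 3 pairs of a coding and a non-coding gene with the highest Pol II rank, and 3 without a peak. Members and gene lists were chosen with earlier results of these data known. Gene lists were made from symbols and symbol prefixes. A few markers and 1 named pair are not reported here.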

Additional observations from a re-analysis of the deposited data

How the results depend on the processing

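All settings compare the share of pairs with a Veh peak less that of other windows (difference) and the GSK-only less the Veh-only share of pairs (net change), in percentage points. With 1 TSS pair per gene pair the H3K4me2 difference was 27.4, and with the window of the plus-strand TSS alone the H3K4me1 difference was 5.08. With a −log10 p of at least 5, the LSD1 difference was 29.3 and its net change 13.1. With a −log10 q of at least 2, the differences were 31.4 for LSD1 and 39.8 for Pol II, and the net changes 11.8 and -13.5. With an overlap of at least 200 bp, the H3K4me1 difference was 4.79, and the net changes of H3K4me2 and H3K27ac were -18.8 and -28. With lists of equal length, the differences were 17.6 for H3K4me2 and 17.2 for H3K27ac, and the net changes were 2.95 for H3K4me1, 2.55 for H3K4me2 (the direction turned), 0.102 for H3K4me3 and -1.58 for H3K27ac. With a distance of at most 500 bp the H3K27ac net change was -30.2. Among coding genes only, the differences were 5.43 for H3K4me1, 42.9 for H3K27ac and 48.6 for Pol II, and the net changes were 14.1 for H3K4me1, -24.3 for H3K4me2, -36.2 for H3K27ac and -14.7 for Pol II.

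Among CpG-rich windows the differences were 10.2 for LSD1, -8.17 for H3K4me1 (turned), 1.99 for H3K4me2, 11.5 for H3K4me3, 25.3 for H3K27ac and 25.3 for Pol II, and the net changes were -22.3 for H3K4me2 and -32.4 for H3K27ac. Among windows with H3K4me3 the differences were 7.01, -10.5 (turned), -1.25 (turned), 2.09, 23.1 and 22.9 in the same order, and the net changes were -22.6 and -32.9. Among coding, CpG-rich windows with H3K4me3, a setting added after seeing the data, the differences were 2.66, -14.3 (turned), -3.9 (turned), 2.42, 29.3 and 26, and the net changes were 15.1 for H3K4me1, -24.8 for H3K4me2, 0 for H3K4me3, -39.1 for H3K27ac and -15.1 for Pol II. In these 3 settings the GSK differences also turned, to -6.26, -8 and -9.62 for H3K4me1 and to -3.47, -3.99 and -9.99 for H3K4me2. The cause of these changes was not tested. No paired analysis was possible because each antibody and treatment had 1 library and no result comes from a test.

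The number of peaks a library yields limits every share, and 1 library a group leaves the spread between cultures unknown.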
